A study of Mus musculus with 39 samples.

Results

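DNA damage sensing and repair genes were examined in single crypt epithelial cells of the irradiated mouse intestine. The genes were 35 of the 25219 listed for each cell, taken by symbol from 5 repair pathways, with 12 for damage sensing, 5 for end joining, 6 for base excision repair, 11 for homologous repair with the Fanconi pathway, and 1 for mismatch repair. Mice carrying the alleles Lgr5-EGFP-Ires-CreERT2 and Rosa-lsl-tdTomato were given tamoxifen 24 h before total body irradiation (TBI) with 10 Gy. At 48 h after TBI, tdTomato+ Sca1- cells (Sca1-Lgr5-derivatives) were sorted and captured singly, and RNA was sequenced from 39 of them. In this model the Cre recombinase is driven by the Lgr5 locus, so that tdTomato marks cells that expressed Lgr5 when tamoxifen was given, together with all of their progeny. All 39 cells shared this genotype and treatment. Unirradiated cells were not analysed here, and the labels name no animal for any cell, so the cells were 1 biological sample and every SD is over cells. For this reason no test was made, and the values describe how these genes varied from cell to cell 48 h after irradiation.

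A double-strand break is bound by the Mre11a, Rad50 and Nbn complex, which activates the kinase Atm, whereas single-stranded DNA at stalled forks activates Atr. Breaks are then either ligated directly by end joining, in which the Ku proteins Xrcc5 and Xrcc6 hold the ends, or copied from the sister chromatid by homologous repair, which needs a replicated template and is therefore a pathway of S and G2 phase. Base excision repair removes oxidised or deaminated bases, and its proteins also repair single-strand breaks. Crypt stem cells divide rapidly and are highly sensitive to radiation.

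Depth was between 398418 and 3903971 estimated counts per cell, and between 2287 and 5779 genes were detected per cell (at least 1 FPKM, the fragments of a gene scaled to its transcript length and to the sequencing depth of the cell). The epithelial label was borne out by its markers, as Epcam, Krt8, Krt18 and Cldn7 were detected in 39 of 39 cells. Of the stem cell markers, Olfm4 was detected in 33 cells and Lgr5 in 8. Ly6a, which encodes Sca1, the marker gated against, was detected in 4 cells. Libraries were amplified without molecular identifiers, so that a transcript that was missed at reverse transcription is listed at 0, and intervals for shares of cells cover counting error only.

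Genes used in S phase often carry a binding word for E2F factors in the promoter, so this word was searched for in the repair genes. RefSeq promoters (GRCm38.p6, 250 bases before to 50 bases after each annotated start) were matched for 27 of the 35 genes. They were not given for Exo1, Fancd2, H2afx, Nbn, Prkdc, Rad50, Rbbp8 and Usp1. The words TTTCCCGC, TTTGGCGC and TTTCGCGC were read on both strands, with a gene counted once. CCAAT, which was also searched, can share at most 1 end base with them. At least 1 of the 3 E2F words was found in 6 of 27 genes (22.2%), against 1.84% of all 32851 promoters, 4.54% of 7833 genes expressed in these cells (mean of 1 FPKM or more) and 42.9% of 28 DNA replication genes. CCAAT was found in 14 of 27 repair genes (51.9%), against 43.8% of the 7833 genes. The 6 genes all carried the same word, TTTCCCGC, which is in capitals in the 28 bases printed for each, on the strand that reads as the word.
Bard1 (chr1:71103164-71103191, minus strand): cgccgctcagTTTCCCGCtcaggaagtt
Brca2 (chr5:150522443-150522470, minus strand): tgtgtgtctgTTTCCCGCtgtggcctaa
Chek2 (chr5:110839821-110839848, minus strand): gacgtcttggTTTCCCGCggctaatccc
Mdc1 (chr17:35841472-35841499, plus strand): cttcagcctgTTTCCCGCcggtagccgc
Msh6 (chr17:87975055-87975082, plus strand): tcctcccgacTTTCCCGCcagcggcggc
Xrcc6 (chr15:82016313-82016340, minus strand): cccactcgcaTTTCCCGCttccaccccc

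The capitals stand at different distances from the start, from 209 bases before it in Bard1 to 15 bases after it in Msh6. None of the 6 base excision genes held an E2F word. The whole promoter is printed for 3 genes of different pathways that are described with the comparisons of cells, Xrcc6 as an example with both words, and Apex1 and Rad54l as 2 of those that differed most between groups of cells, with E2F and CCAAT words in capitals on whichever strand they lie (CCAAT on the other strand reads ATTGG, and TTTCCCGC reads GCGGGAAA).
Xrcc6 (chr15:82016119-82016418, plus strand): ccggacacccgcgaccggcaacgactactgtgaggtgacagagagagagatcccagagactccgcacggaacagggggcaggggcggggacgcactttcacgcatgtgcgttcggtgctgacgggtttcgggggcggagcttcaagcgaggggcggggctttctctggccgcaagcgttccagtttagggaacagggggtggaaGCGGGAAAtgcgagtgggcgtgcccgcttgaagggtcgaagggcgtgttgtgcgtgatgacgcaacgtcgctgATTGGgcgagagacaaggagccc
Apex1 (chr14:50924699-50924998, plus strand): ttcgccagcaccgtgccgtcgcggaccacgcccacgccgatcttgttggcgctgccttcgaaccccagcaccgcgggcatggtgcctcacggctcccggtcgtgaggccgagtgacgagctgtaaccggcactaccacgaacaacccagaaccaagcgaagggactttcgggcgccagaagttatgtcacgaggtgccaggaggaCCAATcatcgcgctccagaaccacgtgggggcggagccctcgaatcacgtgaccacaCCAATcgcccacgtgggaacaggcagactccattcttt
Rad54l (chr4:116123640-116123939, minus strand): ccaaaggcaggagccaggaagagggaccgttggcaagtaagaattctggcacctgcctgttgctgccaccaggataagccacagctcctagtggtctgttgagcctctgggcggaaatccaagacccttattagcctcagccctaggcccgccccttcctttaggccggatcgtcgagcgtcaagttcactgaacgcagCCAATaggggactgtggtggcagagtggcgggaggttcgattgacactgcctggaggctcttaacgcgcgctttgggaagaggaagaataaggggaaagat

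Apex1 held 2 CCAAT words and no E2F word, and Rad54l held 1 CCAAT and no E2F word. These matches describe the letters of the promoters and are not binding sites.

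All 35 repair genes were expressed in this sense, as were 9804 of all genes (38.9%). At this limit most repair genes were found in a minority of cells, since 11 of the 35 (31.4%) were detected in at least 50% of cells, compared with 37.4% of the 9804 expressed genes. The count depended on the limit, being 22 of 35 for any value above 0 and 6 at 5 FPKM or more. It was 17 for 1 read or more in 38 cells thinned to 600000 counts. The median over the repair genes was detection in 16 cells, and over the 9804 genes in 14. No repair gene was detected in all 39 cells. The median cell stood at 0 FPKM for 13 of them and below 1 FPKM for 24. The median of these medians was 0.127 FPKM, compared with 0.0937 FPKM over the 9804 genes. Each cell contained between 4 and 22 of the 35 at 1 FPKM or more, with a median of 15. In order of mean FPKM, all 34 neighbouring pairs differed by less than the SD over cells, the widest gap being 1.29 on the log2(FPKM + 1) scale. Neighbours in an ordered list are close by construction, so this does not show whether the order holds. The plot of each gene in each cell shows the spread over cells, with points both at 0 and at high FPKM for most genes.

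**Figure D1:**
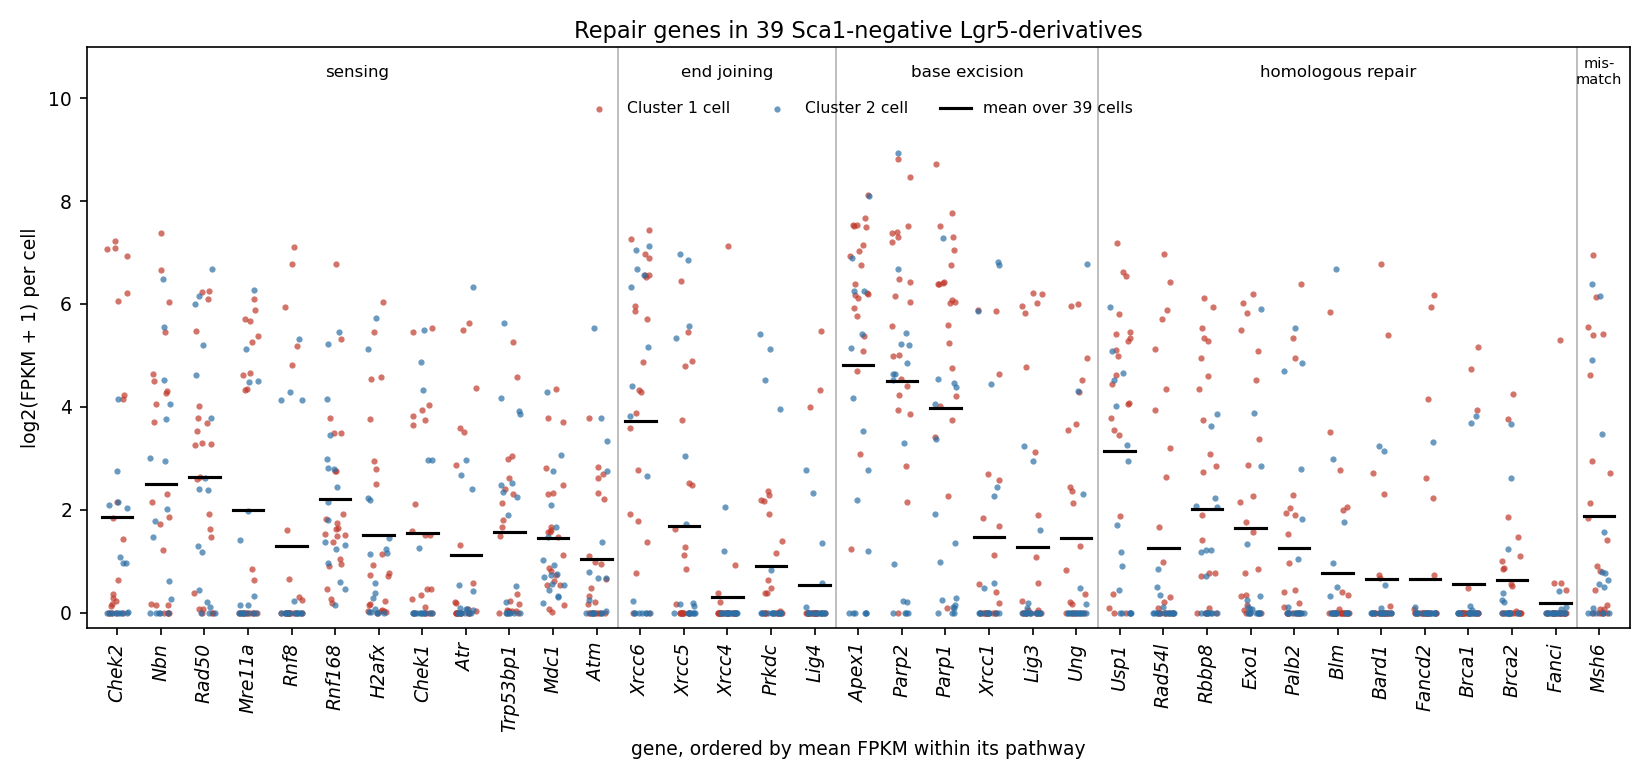
Level of the 35 repair genes in each of the 39 Sca1-Lgr5-derivatives, as log2(FPKM + 1) on the vertical axis, with genes grouped by pathway and ordered by mean FPKM. Points are single cells (red Cluster 1, blue Cluster 2) and black lines are means over 39 cells. Apex1, Parp2, Parp1 and Xrcc6 have the highest means, and most other genes have many cells at 0.

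Among the sensing genes, the break-binding complex and the checkpoint kinase Chek2, which acts below Atm, had the highest means, although by the median Chek2 and Mre11a lay below Rnf168, Trp53bp1 and Mdc1. Chek2 ranged from 0 to 149 FPKM with a median of 0.563 and was detected in 17 of 39 cells. Its mean of 19.4 FPKM, the highest of the sensing genes, thus rested on few cells with high values. Nbn ranged from 0 to 166 FPKM with a median of 3.04 and was detected in 25 cells. Rad50 ranged from 0 to 102 FPKM with a median of 5.09 (27 cells). Mre11a, the nuclease of the complex, ranged from 0 to 76.2 FPKM with a median of 0.113 (16 cells). Each subunit was thus found at high level in some cells and at 0 in others. Rad50 and Nbn were both detected in 19 cells, Rad50 and Mre11a in 10, and Mre11a and Nbn in 9. Over the 39 cells, Pearson's r of log2(FPKM + 1) was -0.12 for Mre11a and Rad50, 0.08 for Rad50 and Nbn, and -0.11 for Mre11a and Nbn.

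The kinases at the head of the pathway were at low level. Atm ranged from 0 to 45.5 FPKM with a median of 0.248 and was detected in 12 cells. Atr ranged from 0 to 79.6 FPKM with a median of 0.0466 (11 cells). Chek1, the kinase below Atr, ranged from 0 to 45.6 FPKM with a median of 0.273 (17 cells). Most cells were therefore below 1 FPKM for each of these kinases. That limit takes more reads for a long transcript such as Atm (11964 bases), which was at 0 in 15 cells. The r was -0.01 for Atr with Chek1 and -0.14 for Atm with Chek2. Of the mediators that act in the chromatin around a break, Rnf168, Mdc1 and Trp53bp1 were detected in more cells than these kinases, and Rnf8 in fewer. Rnf168, a ubiquitin ligase that modifies histones at breaks, was above 0 in every cell, ranging from 0.117 to 108 FPKM with a median of 2.37, and was detected in 30 cells (76.9%, exact Clopper-Pearson 95% interval 60.7 to 88.9%). Mdc1, the scaffold that reads phosphorylated H2afx, was also above 0 in every cell, from 0.00491 to 19.4 FPKM with a median of 1.05 (20 cells). Of the estimated counts above 0, 18.4% were not whole numbers, so the lowest values can stand for a fraction of a read. Rnf8, the ligase that acts before Rnf168, was by contrast at 0 in 25 cells and reached 137 FPKM in 1 cell. The histone variant H2afx had a median of 0.653 FPKM (17 cells) and Trp53bp1, which steers breaks towards end joining, a median of 1.83 FPKM (20 cells). Trp53bp1 overlaps Tubgcp4 on the other strand by 3936 bases, and reads of the 2 genes cannot be told apart there with libraries that do not mark strand.

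In end joining, Xrcc6 (Ku70, chr15:82016369-82040084, plus strand) had the highest mean of the 5 genes, 44.6 FPKM. It ranged from 0 to 171 FPKM with a median of 18.5 and was detected in 28 cells. Xrcc5 (Ku80) ranged from 0 to 125 FPKM with a median of 0.127 and was detected in 16 cells. The 2 Ku proteins work as a dimer, and their transcripts were found together in 12 cells, with r = 0.21. Prkdc, the kinase that Ku recruits, was at 0 in the median cell and reached 42.0 FPKM (11 cells). The ligation step was the least detected, with Lig4 in 6 cells and its partner Xrcc4 in 3. A single cell, number 86, held 95.98% of the summed FPKM of Xrcc4, at 139 FPKM. The next cell was at 3.14 FPKM. The end joining score, the mean of log2(FPKM + 1) over the 5 genes, ranged from 0 in 3 cells to 3.73 and 3.66 in cells 94 and 92.

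Base excision repair had the most abundant transcripts of all 35. Apex1, the endonuclease that cuts at abasic sites (chr14:50924949-50927188, plus strand), ranged from 0 to 277 FPKM with a median of 59.6, and was detected in 33 cells (84.6%, interval 69.5 to 94.1%). Parp2, a sensor of strand breaks that makes poly(ADP-ribose) (chr14:50807946-50821300, plus strand), ranged from 0 to 485 FPKM with a median of 27.96 (31 cells). Parp1, the main enzyme of that kind (chr1:180568975-180601254, plus strand), ranged from 0 to 419 FPKM with a median of 19.9 (29 cells). These 3 genes were at or near 0 in a few cells and above 100 FPKM in others. Apex1 overlaps Tmem55b on the other strand by 1119 bases, and Tmem55b was itself detected in 32 cells. The other genes of the pathway were detected less often. Ung, which removes uracil at the start of the pathway, was found in 14 cells, the scaffold Xrcc1 in 14 and the ligase Lig3 in 12. Xrcc1 and Lig3, which form a complex, were found together in 5 cells (r = 0.09), whereas Parp1 and Apex1 were found together in 28 (r = 0.43).

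Most homologous repair genes were detected in few cells, Usp1 and Rbbp8 being the exceptions. Usp1, which removes ubiquitin from Fancd2, ranged from 0 to 145 FPKM with a median of 12.8 (27 cells). Rbbp8 (CtIP), which starts the resection of break ends, ranged from 0 to 68.4 FPKM with a median of 1.33 (22 cells). Exo1, the nuclease that extends resection, had a median of 0.252 FPKM and was detected in 16 cells. Palb2, which links Brca1 to Brca2, was detected in 14 cells, and Rad54l, a motor protein that acts in strand invasion, in 10. The tumour suppressors of the pathway were detected in few cells, Brca2 in 9 and Brca1 in 5. Brca2 has a long transcript (11133 bases) and was at 0 in 22 cells. Brca1 reached 34.99 FPKM, and its partner Bard1 was detected in 6 cells, 1 of which also contained Brca1. The helicase Blm was detected in 8 cells and Fancd2 in 6. Fanci, which pairs with Fancd2, was detected in 1 cell, number 22, at 38.4 FPKM. Fanci overlaps Polg by 882 bases on the other strand. Cell 39 held 61.3% of the summed FPKM of Bard1 and cell 94 held 52.9% of that of Blm. In the only mismatch repair gene of the set, Msh6, which recognises mispaired bases, values ranged from 0 to 123 FPKM with a median of 0.714 (16 cells).

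The remaining genes of each pathway were taken from lists of known members. The single-strand binding proteins Rpa3 and Rpa2 and the fork protection factor Tipin led the wider sensing list, at means of 96.1, 88.4 and 109 FPKM. Shfm1 (Dss1), a partner of Brca2 that had been listed with end joining, was detected in all 39 cells at a mean of 295 FPKM, and the end-processing nuclease Dclre1c (Artemis) in all 39 at 38.6 FPKM, followed by the polymerase Poll at 12.4 FPKM. Hmgb1, an abundant chromatin protein listed with base excision repair, was also detected in all 39 cells, at 1336 FPKM, ahead of the polymerase Polb (62.1 FPKM) and the flap nuclease Fen1 (33.6 FPKM). Nsmce1, of the Smc5/6 complex, and Ube2t, the ubiquitin-conjugating enzyme of the Fanconi pathway, had means of 58.2 and 34.6 FPKM. Pms1, of the wider mismatch repair list, had a mean of 7.56 FPKM. In nucleotide excision, Ddb1 had a mean of 102 FPKM and Cetn2 of 37.7 FPKM, and translesion synthesis with direct reversal was led by Alkbh3 (31.99 FPKM), Mgmt (27.5 FPKM) and Rad18 (11.1 FPKM).

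Correlation between repair genes was close to that of any gene pair. Over the 595 pairs of the 35 genes, the median r was 0.03, compared with 0.02 over all pairs of the 9804 genes. None of the 595 pairs reached r = 0.5, which 0.547% of all pairs did. The median r within a pathway was -0.01 for sensing, -0.06 for end joining, 0.12 for base excision and -0.0017 for homologous repair. The points of these correlations are cells that share library preparation and differ in depth.

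Scores per cell, which average each pathway over its genes, had higher correlations than single genes did over the 39 cells, in part of the pairs. Base excision had a mean score of 2.92 ± 1.29 (SD over 39 cells) with a range from 0.32 to 4.97, sensing 1.73 ± 0.60 with a range from 0.44 to 2.89, and homologous repair 1.17 ± 0.68 with a range from 0.03 to 2.58. The score of homologous repair had an r of 0.63 with that of base excision and 0.49 with that of sensing. With the number of genes detected removed these were 0.45 and 0.26, within Cluster 1 they were 0.01 and 0.24, and within Cluster 2 they were 0.65 and 0.58. The score of sensing had an r of 0.31 with base excision, and that of end joining had an r of 0.14 with sensing, 0.15 with base excision and 0.30 with homologous repair. Without cells 94 and 92, which had the highest end joining scores, these were 0.23, 0.35 and 0.51. In cell 92 the end joining score was 3.66 while the sensing score of 0.44 and the homologous repair score of 0.03 were the lowest of all cells. That cell contained 7 of the 35 genes.

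The homologous repair score was higher in cells with higher levels of DNA replication genes, and the base excision score was low in most cells where these genes were low. The replication score, the mean over 36 genes of the replication machinery led by Pcna, Rrm2 and Mcm7 at means of 233, 208 and 150.4 FPKM, ranged from 0.42 to 5.52, and none of the 36 was a repair gene of the set. Its r was 0.78 with homologous repair, 0.70 with base excision, 0.64 with sensing and 0.29 with end joining, which was 0.47 without cell 92. The cells did not fill this range evenly, since 8 cells, all of Cluster 2, had a replication score under 2, with homologous repair scores from 0.03 to 0.91. Over the other 31 cells r was 0.57 for homologous repair, 0.42 for sensing, 0.27 for end joining and 0.21 for base excision. The relation of base excision to replication thus rested on those 8 cells. It was -0.08 within Cluster 1 and 0.69 within Cluster 2, which holds them. For homologous repair r was 0.48 within the 22 cells of Cluster 1 and 0.82 within the 17 of Cluster 2.

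**Figure D2:**
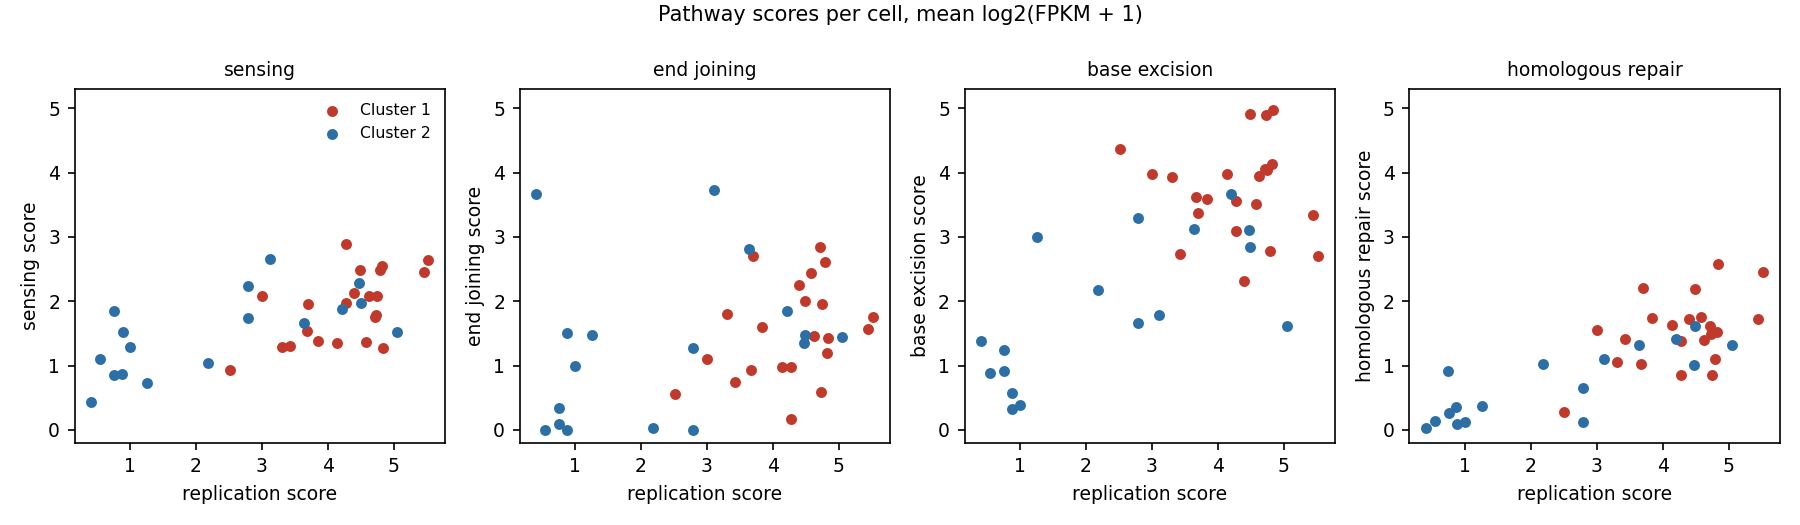
Scores of 4 repair pathways (vertical axes, mean log2(FPKM + 1) over each pathway's genes) against the replication score (horizontal axes, the same mean over 36 replication genes). Each point is a cell, red for Cluster 1 and blue for Cluster 2. Homologous repair scores are higher in cells with higher replication scores, whereas base excision scores are at most 1.39 in 7 of the 8 cells under a replication score of 2 and widely spread in the rest.

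The number of genes detected and depth moved with these scores as well. The number of genes detected per cell had an r of 0.65 with homologous repair and 0.52 with base excision, and of 0.80 with the number of repair genes detected. The estimated counts per cell had an r of 0.48 with homologous repair, 0.59 with base excision and 0.14 with sensing. After removal of a straight line on the number of genes detected, r with the replication score was 0.60 for homologous repair, 0.56 for base excision, 0.47 for sensing and 0.01 for end joining. Among single genes, Parp1 (r = 0.65), Xrcc6 (0.58), Apex1 (0.53), Chek2 (0.47), Usp1 (0.45), Rad54l (0.43) and Chek1 (0.42) had an r of at least 0.4 with the replication score. These are 7 of 35 genes, and 9.75% of all 9804 genes reached this value. With the number of genes detected removed, Parp1 (0.59) and Chek2 (0.48) of these were still at 0.4 or more, Bard1 (0.49) joined them, and Rad54l (0.36), Apex1 (0.31), Usp1 (0.25), Xrcc6 (0.24) and Chek1 (0.10) were below it. These are 3 of 35 genes, and 1.86% of all genes reached this value after the removal. Of the 6 genes printed with TTTCCCGC in the promoter, Xrcc6 and Chek2 were at 0.4 or more before this removal, and Chek2 and Bard1 after it. Mitotic genes, led in level by Ube2c (155 FPKM), were less related to homologous repair (r = 0.51, and 0.045 without the 8 cells), and p53 target genes had an r of -0.10 with it over the 39 cells, -0.38 with the number of genes detected removed, -0.28 within Cluster 1 and 0.49 within Cluster 2. With 1 cell left out it was -0.18 (without cell 51) to -0.047 (without cell 95).

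**Figure D3:**
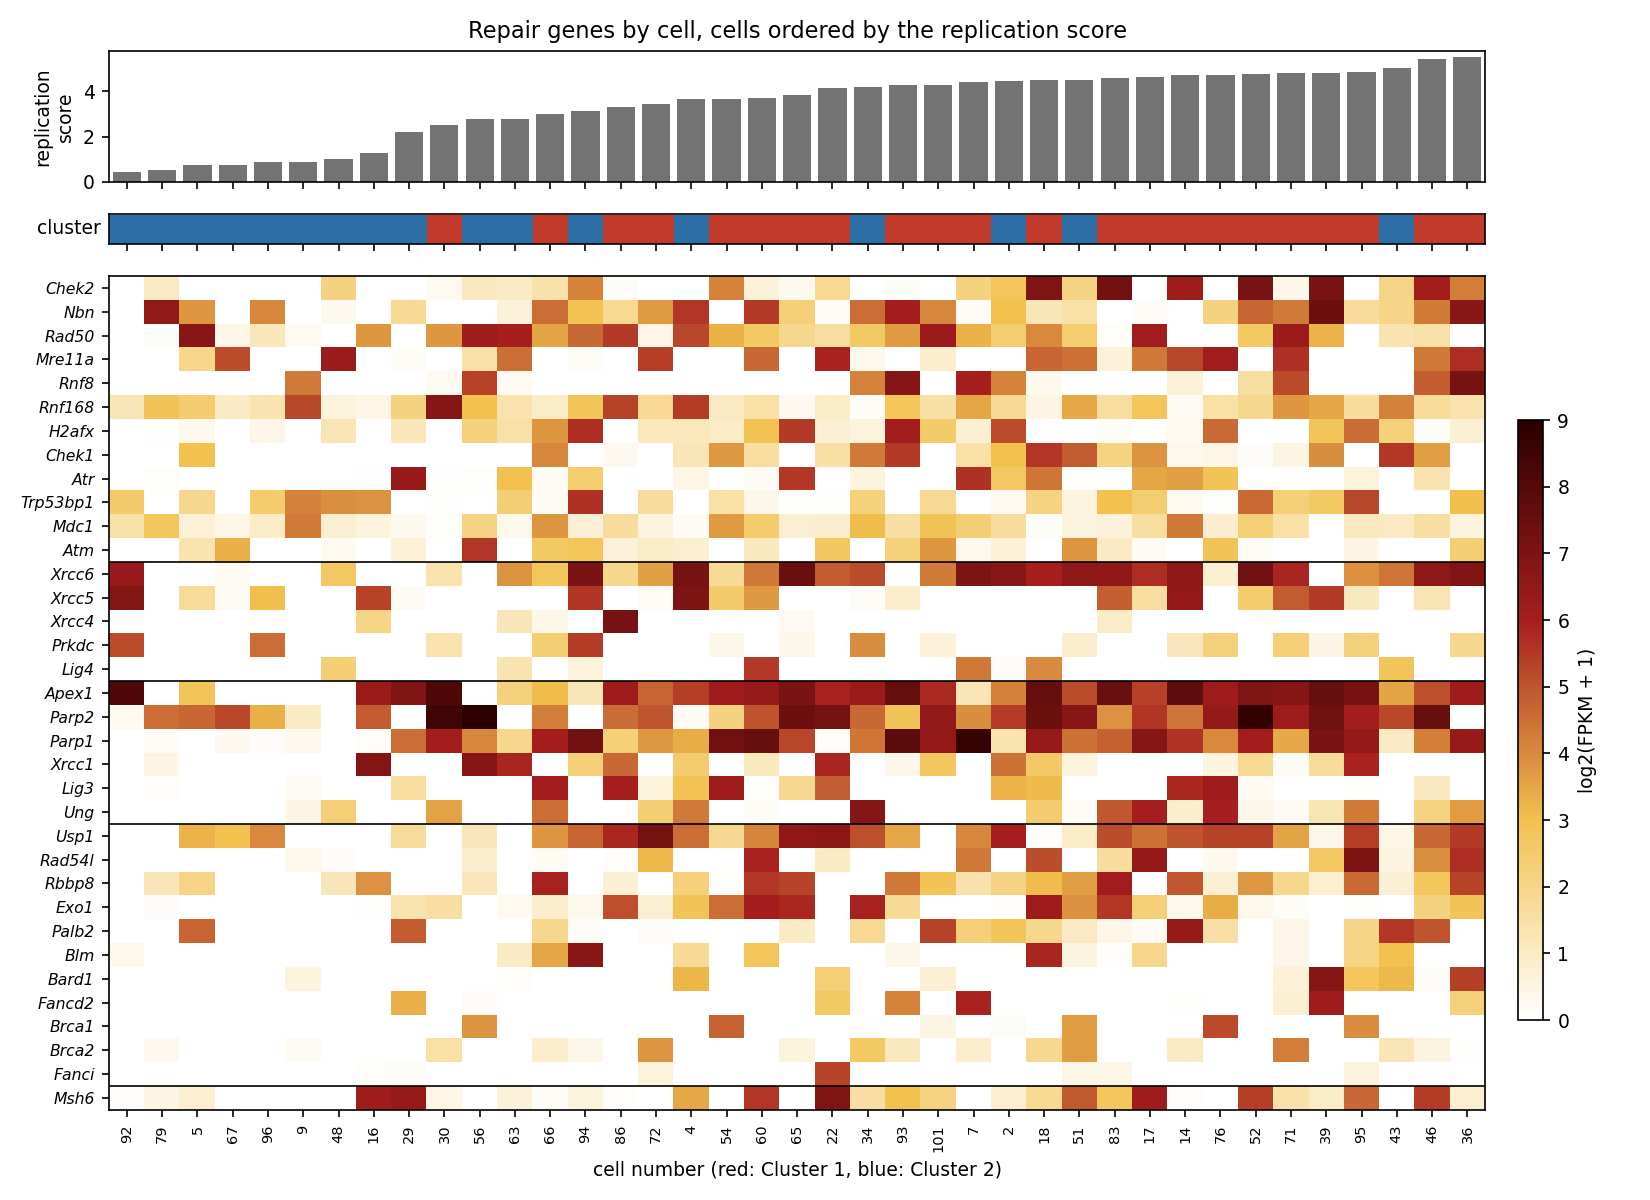
Heat map of log2(FPKM + 1) for the 35 repair genes (lines) in the 39 cells (columns), with cells ordered by the replication score, which the grey bars give, and the cluster of each cell in red (Cluster 1) or blue (Cluster 2). The leftmost 8 cells contain 4 to 13 repair genes at 1 FPKM or more, and the colours differ between neighbouring cells in most lines.

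Outside the set, the genes most like the homologous repair score were sought among 4901 genes with a mean FPKM of 10 or more, over the 39 cells. The 10 highest were Nudc (r = 0.74), a factor of nuclear migration, Mthfd1 (0.72), a folate enzyme of nucleotide synthesis, Orc6 (0.71), a subunit of the origin recognition complex, Dkc1 (0.69), the pseudouridine synthase dyskerin, Xpo1 (0.68), a nuclear export receptor, Hells (0.67), a chromatin remodeller, Rad21 (0.66), a cohesin subunit, Rrm1 (0.66), of ribonucleotide reductase, the DNA ligase Lig1 (0.66) and the histone chaperone Supt16 (0.65). The median over the 4901 genes was 0.18. Without the 2 cells under 2500 genes detected, 6 of the 10 were again among the 10 highest.

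The study grouped these cells by an intestinal stem cell (ISC) signature, and the same was done here to compare repair genes between the groups. Clustering on the 98 ISC signature genes, none of which was a repair, replication, mitotic or p53 target gene of the lists, gave Cluster 1 with 22 cells and Cluster 2 with 17, Cluster 1 being the group with more Olfm4. Since the clusters were drawn from the same cells, the differences are descriptions. Of the 5 groups of repair genes, base excision differed most. Its score ranged in Cluster 1 from 2.32 to 4.97 with a median of 3.78, and in Cluster 2 from 0.32 to 3.68 with a median of 1.67. All 17 Cluster 2 cells lay below the Cluster 1 median and 11 lay below every Cluster 1 cell, although the groups overlapped. The mean difference was 1.84 (pooled SD over cells 0.91). The homologous repair score differed by 0.83 (SD 0.54), and 16 of 17 Cluster 2 cells were below the Cluster 1 median. Differences for sensing (0.39, SD 0.57), end joining (0.23, SD 0.97) and Msh6 (0.64, SD 2.33) were smaller than the spread between cells. With 1 cell left out, end joining differed by 0.15 (without cell 9) to 0.39 (without cell 94), and Msh6 by 0.42 (without cell 22) to 0.95 (without cell 29). Over the wider lists of further genes the score differences were 0.47 for base excision (19 genes), 0.62 for sensing, 0.61 for mismatch repair, 0.56 for homologous repair and 0.25 for end joining, so that the lead of base excision held for its 6 genes and not for the wider list.

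Of the 35 genes, 11 (31.4%) had a mean log2(FPKM + 1) at least 1 higher in Cluster 1, where 19.2% of the 9804 genes did, and 0 were at least 1 higher in Cluster 2, where 3.35% of genes were. The median difference was 0.44 for the repair genes and 0.28 for all genes. The 11 genes comprised 5 of the 6 base excision genes and 4 of the 11 homologous repair genes, with 1 of 12 in sensing and 1 of 5 in end joining. Cluster 1 cells had a median of 4663.5 genes detected and Cluster 2 cells 4073, and the median depth was 3393504 and 2704767 estimated counts, with lowest cells at 2533503 and 398418. With the number of genes detected removed, 7 of 35 remained past 1, namely Parp1, Apex1, Parp2, Lig3, Rad54l, Usp1 and Chek2, against 7.6% of all genes. The score differences were then 1.31 for base excision and 0.48 for homologous repair, while that of Xrcc6 was 0.01. With the estimated counts removed instead, the score differences were 1.02 for base excision, 0.48 for homologous repair and -0.069 for end joining.

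Parp1 differed the most in mean log2(FPKM + 1). By the log2 ratio of mean FPKM + 1, Rad54l (4.15), Chek2 (3.46), Lig3 (3.12) and Xrcc4 (2.55) were above Parp1 (2.50). Parp1 ranged in Cluster 1 from 0.0717 to 419 FPKM with a median of 65.4, and in Cluster 2 from 0 to 154 FPKM with a median of 0.989. It was detected in 21 of 22 and 8 of 17 cells, with a difference of 3.60 (SD 2.11). Apex1 ranged in Cluster 1 from 1.36 to 277 FPKM with a median of 78.1 and in Cluster 2 from 0 to 272 FPKM with a median of 5.87. The difference was 3.13 (SD 2.24), and it was detected in 22 of 22 and 11 of 17 cells. Both genes overlapped between clusters, the high end being alike for Apex1. Parp2 differed by 2.26 (SD 2.48), with medians of 55.6 and 22.05 FPKM. Of the other genes, Lig3 differed by 1.44 and Ung by 1.12, each by less than its SD, whereas the scaffold Xrcc1 was the base excision gene with the lower mean in Cluster 1 (-0.50, SD 2.23). The log2 ratio of mean FPKM + 1 was 1.42 for Apex1, 1.01 for Parp2, 0.40 for Ung and -1.23 for Xrcc1. With the number of genes detected removed, Ung differed by 0.78.

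Rad54l was the homologous repair gene with the clearest separation. It was detected in 10 of 22 Cluster 1 cells, ranging up to 125 FPKM with a median of 0.62, and in 0 of 17 Cluster 2 cells, which allows a share of up to 19.5% (exact Clopper-Pearson limit). No Cluster 2 cell exceeded 0.812 FPKM and 11 Cluster 1 cells did. The difference was 2.05 (SD 1.93), or 4.15 as the log2 ratio of mean FPKM + 1. Rad54l shares 89 bases with Lrrc41 on the other strand. Usp1 had medians of 22.3 and 1.27 FPKM and a difference of 1.97 (SD 2.18). Rbbp8 differed by 1.67 (SD 1.90), with 8 Cluster 1 cells above its highest Cluster 2 value of 13.5 FPKM, and Exo1 by 1.38 (SD 2.06, or 3.67 with a pseudocount of 0.1 FPKM), with detection in 12 of 22 and 4 of 17 cells. With the number of genes detected removed, Rbbp8 and Exo1 differed by 0.88 and 0.74. Brca1 (0.20), Brca2 (0.25), Palb2 (0.07) and Blm (-0.0041) differed by less than 1 on this scale, at detection in few cells, although Brca2 differed by 1.70 with a pseudocount of 0.1 FPKM. In sensing, Chek2 differed by 1.60 (SD 2.35), with 8 Cluster 1 cells above its highest Cluster 2 value of 16.7 FPKM. Xrcc6 differed by 1.39 (SD 2.74), with detection in 19 of 22 and 9 of 17 cells. Only Parp1, Apex1 and Rad54l of the 11 differed by more than the pooled SD over cells.

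**Figure D4:**
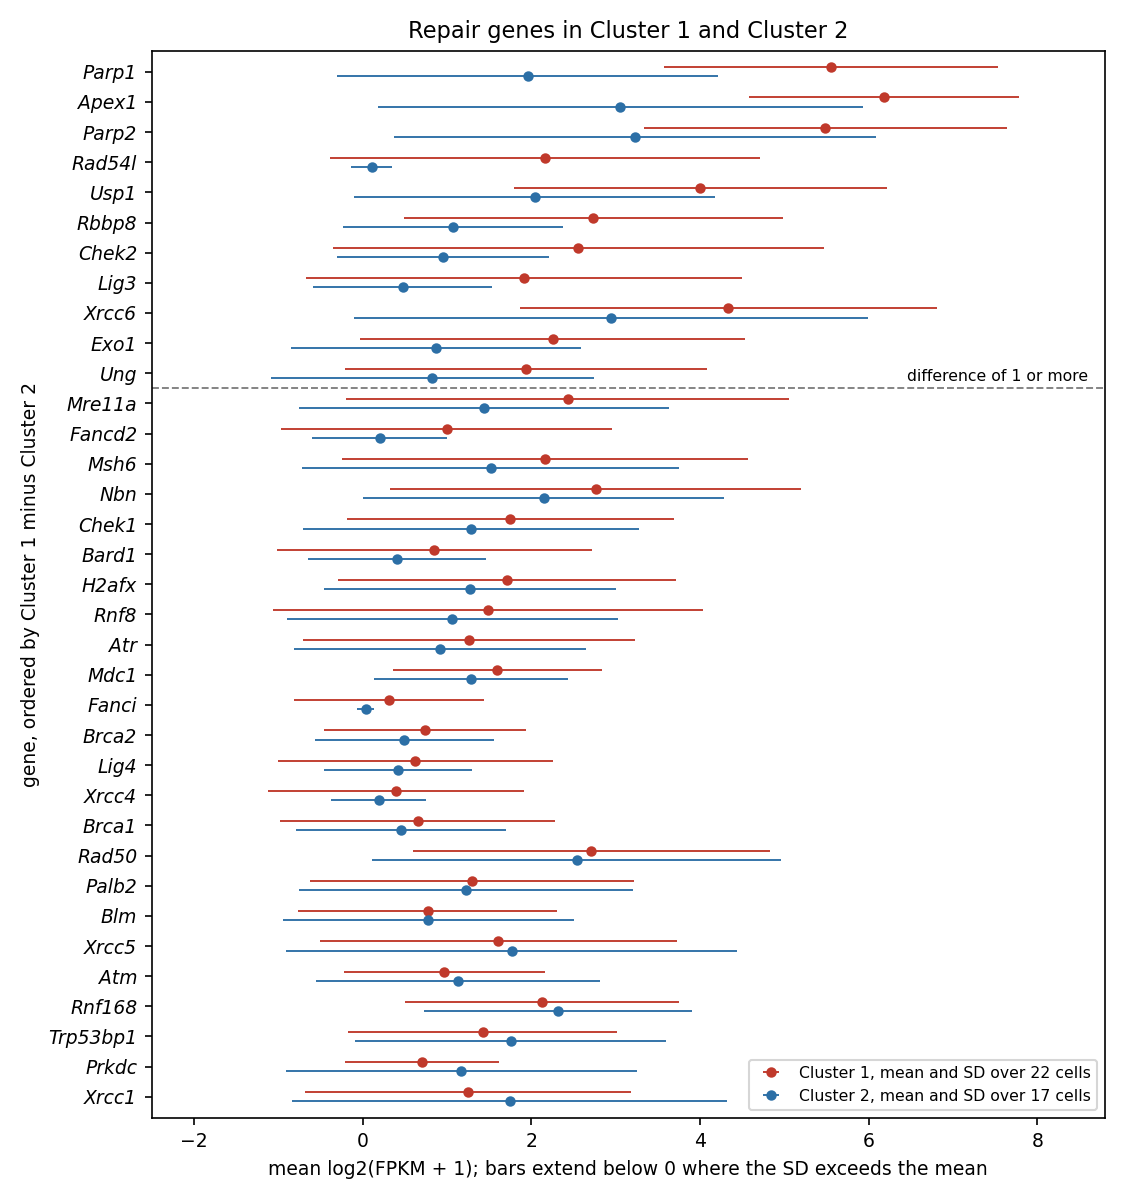
Mean log2(FPKM + 1) of each repair gene (horizontal axis) in the 22 cells of Cluster 1 (red) and the 17 cells of Cluster 2 (blue), with bars of 1 SD over cells, genes ordered by the difference. The 11 genes above the dashed line differ by 1 or more, and the bars of most genes overlap widely.

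The lists of further genes had the following counts in the same comparison, to be read against the 19.2% of all genes that were at least 1 higher in Cluster 1 and the 3.35% in Cluster 2. In replication, 28 of 36 genes were at least 1 higher in Cluster 1 and 0 in Cluster 2, led by Rrm2 (3.75), Prim1 (3.64) and Rrm1 (3.58). In mitosis, 15 of 25 were higher in Cluster 1 and 0 in Cluster 2, led by the cyclins Ccnb2 (3.67), Ccna2 (3.21) and Ccnb1 (2.77). Wider homologous repair had 6 of 29 genes, among them Eme1 (2.27), an endonuclease subunit, and Nsmce1 (1.91). Wider base excision had 4 of 17, led by the replicative ligase Lig1 (2.73), Fen1 (2.13) and Tdp1 (1.49). Wider sensing had 6 of 22, led by Tipin (3.19), Rpa1 (2.18) and Rpa2 (1.93), wider end joining 2 of 6 (the polymerases Poll and Polm, both 1.23, whereas Tdp2 was at -0.33), and wider mismatch repair 2 of 5 (among them Pms1, 1.76). None of these wider lists had a gene at least 1 higher in Cluster 2. Nucleotide excision had 5 of 16 genes higher in Cluster 1, among them the damage sensor Ddb1 (2.78) and Cetn2 (1.42), and 1 higher in Cluster 2. In translesion synthesis and direct reversal 1 of 8 was higher in Cluster 1, the ligase Rad18 (1.41), and 1 in Cluster 2, Mgmt (-1.46), which removes alkyl groups from guanine. The polymerase Rev1 was at -0.74.

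The p53 targets went the other way, with 1 of 21 at least 1 higher in Cluster 1 and 7 in Cluster 2. Cdkn1a, the p53 target that halts the cell cycle, was detected in 12 of 22 Cluster 1 cells and 17 of 17 Cluster 2 cells, at means of 40.9 and 122 FPKM. It had the largest difference of the list (-3.06), followed by the death receptor Fas (-2.24) and Trp53inp1 (-2.14). By level the list was led by Perp (96.3 FPKM), Ccng1 (86.4 FPKM) and Cdkn1a (76.2 FPKM over all cells).

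Markers of other epithelial cell types reached higher levels in some cells of Cluster 2. Summed over its list, the level in Cluster 2 cells reached 12674 FPKM for 7 Paneth cell markers, 33577 for 7 goblet, 41011 for 8 enterocyte and 5167 for 6 tuft markers, against 2192, 4817, 1297 and 12.7 FPKM in the highest Cluster 1 cell. In the lowest cell of Cluster 1 and of Cluster 2 these sums were 5.58 and 37.5 FPKM for Paneth, 8.21 and 0.92 for goblet, 68.2 and 9.97 for enterocyte, and 0 and 0 for tuft markers. The medians in Cluster 1 and Cluster 2 were 276 and 616 FPKM for Paneth, 141 and 119 for goblet, 402 and 338 for enterocyte, and 0.01 and 0.12 for tuft markers, so that high sums were carried by a few Cluster 2 cells. Of these genes, 3 of 7 Paneth, 1 of 7 goblet, 2 of 8 enterocyte and 0 of 6 tuft markers had a higher mean in Cluster 1, and 4 of 5 stem cell markers did. Of the enteroendocrine, immune and stromal lists, genes at 0 in all 39 cells were the enteroendocrine Chga, Neurog3, Tac1, Cck and Gip, the lymphocyte genes Cd3e, Cd3g and Cd79a, and the stromal Col1a1, Col1a2, Col3a1, Pdgfra, Pecam1 and Acta2. Others of these lists were not at 0, as Cd74 was detected in 20 cells at up to 613 FPKM, and Itgam, Lyz2, Vim and Neurod1 were each detected in 1 cell. In 9 Cluster 2 cells the Paneth, goblet, enterocyte or tuft sum was above that of every Cluster 1 cell. Without these 9 cells (22 against 8), base excision differed by 1.43, homologous repair by 0.69 and all 35 genes together by 0.53, while the differences of end joining and Msh6 turned to -0.29 and -0.40. Then 10 genes were at least 1 higher in Cluster 1, where 15.7% of genes were, and 1 in Cluster 2, where 9.9% of genes were. The part of cell type, depth and cell cycle in these differences was not tested.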

How the data were processed

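The 39 libraries were made from single cells by SMARTer cDNA amplification on the Fluidigm C1 and by Nextera XT, a kit that does not mark strand. Per the labels, capture sites were inspected under the microscope for single cells, and doublets were not called here. The submitters' processing notes name bcl2fastq 1.8.4, TopHat2 2.0.14 and the build mm10 (GRCm38). The annotation release and the counting tool are not given in the sources used here. The authors deposited FPKM values, normalized per transcript length and sequencing depth, and estimated counts without normalization for 25219 genes. Every value column belonged to 1 of the 39 cells. The FPKM values were analysed as log2(FPKM + 1), which understates differences of low genes, with 1 FPKM or more as detected. Depth was taken from the estimated counts, which were rounded before thinning.

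The 9804 genes whose mean was 1 FPKM or more served as background. Pathway scores are means over genes per cell. Cells were clustered on 98 ISC signature genes from the study's supplement (complete linkage, Euclidean distance, 2 groups). No count model was fitted, since cells are not replicates. The members, gene lists, rule for named genes and settings were chosen with earlier results of these data known. Named were all 35 genes and, from each further list, the 3 with the highest mean and the 3 with the largest cluster difference, and the 10 genes most like the homologous repair score. A few genes that this rule names are counted in their lists but are not reported here. The gene symbols Paxx, Faap24 and Faap100 of the further lists were not found. Gene coordinates are those of the deposited tables, which share the start with RefSeq (GRCm38.p6) for 17 of 35 genes and both ends for 7. The steps for cluster differences, scores and residuals were run on simulated cells with planted changes, with cluster labels taken from the real cells. The other steps were not run on simulated cells. Alternatives were a pseudocount of 0.1 FPKM, rescaled cells, other detection limits, thinning to 600000 counts, residuals on genes detected or on estimated counts, Spearman's rho, cells left out, Ward linkage, other filters and the ratio of means. Python 3.11.15, pandas 2.3.3, numpy 2.4.6, scipy 1.17.1 and matplotlib 3.10.9 were used.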

Additional observations from a re-analysis of the deposited data

How the results depend on the processing

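Of 486 alternative values, 453 stayed within a set limit around the main value, and 33 moved past it. For scores and cluster differences the limit was the spread between cells. For r it was the confidence interval of the main r, and for counts a fixed ratio to the main count. No r of 0.5 or more and no cluster difference of 1 or more changed sign. The sign did change for the r of base excision with mitosis, for several r near 0 with p53 targets, for the cluster differences of end joining and Msh6 and, with a pseudocount of 0.1 FPKM, for 3 mean scores. It was kept in 247 of 261 differences of single genes. Of these, Xrcc4 (2.55), Bard1 (2.07), Rad54l (4.15), Fancd2 (2.42) and Fanci (1.45) moved with the log2 ratio of means, and Brca2 (1.70) and Exo1 (3.67) with a pseudocount of 0.1 FPKM. The 936 values with 1 cell left out all stayed within the same limits, which leaving out 1 cell can hardly exceed. The cluster difference was then 1.74 to 1.95 for base excision and 0.78 to 0.89 for homologous repair. The r with replication was 0.76 to 0.80 for homologous repair and 0.24 to 0.47 for end joining (0.47 without cell 92). No paired analysis was possible because the 39 cells were 1 group.

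The count of repair genes detected in at least 50% of cells was 22 with detection above 0, 6 at 5 FPKM and 17 after thinning (38 cells). With a pseudocount of 0.1 FPKM the mean scores were 0.20 for sensing, -0.72 for end joining, 1.58 for base excision, -1.03 for homologous repair and -0.076 for all genes, the cluster differences were 2.94 for base excision, 1.61 for homologous repair and 1.41 for all genes, and 18 genes were past 1, where 38.4% of all genes were. Genes at least 1 higher in Cluster 2 numbered 2 with the log2 ratio of means (19.2% of all genes) and 1 without the Cluster 2 cells with markers of other cell types (9.9% of all genes). With residuals on genes detected, r was 0.60 for homologous repair with replication, 0.17 with mitosis, and 0.72 and 0.25 for all genes. Without the 8 cells under a replication score of 2, a choice made after seeing the data, as were leaving out the cells with other markers and residuals on the estimated counts, r with replication was 0.57 for homologous repair, 0.21 for base excision and 0.65 for all genes, and with mitosis 0.16 for sensing, -0.36 for base excision, 0.045 for homologous repair and 0.046 for all genes. Without the 2 cells under 2500 genes, 6 of the 10 genes most like homologous repair stayed.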
